A study of Mus musculus with 29 samples.

Results

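Plasmacytoid dendritic cells (pDCs) are immune cells that sense foreign nucleic acids through Toll-like receptors of the endosome and answer with type I interferon. Their gene programme is set by the E protein Tcf4 (E2-2) together with Runx2, Spib and Bcl11a, whereas Pax5 is the transcription factor that commits progenitors to the B cell lineage. pDCs and B cells share several of these genes, among them Spib, Bcl11a, Tcf4 and the receptors Tlr7 and Tlr9, and pDCs can arise from lymphoid as well as from myeloid progenitors.

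The 9 genes described here belong to the pDC programme: Siglech, Runx2, Spib, Bcl11a, Pacsin1, Klk1, Tlr7, Tlr9 and Ptprs. They were matched by symbol in tables of 24732 entries for wild-type and Pax5(-/-) pro-B cells and of 25588 entries for Pax5(+/+) Meox2-cre pro-B cells, and all 9 were found in both. Members were taken by their symbols, with no threshold on a measured value. The entry name of Ptprs carries a mark, IMP_OVL, as do those of Cox6a2, Zeb2, Irak1 and Lat, among other genes named below. The meaning of this mark is not given in the sources used here.

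RNA was sequenced from pro-B cells sorted directly from bone marrow of C57BL/6 mice, in 3 wild-type libraries, 2 Pax5(-/-) libraries and 3 Pax5(+/+) Meox2-cre libraries. Pax5(-/-) cells lack Pax5 from the germ line onward. Meox2-cre drives Cre recombinase ubiquitously from the Meox2 locus, and these control mice, whose cells were pooled, were 3 weeks old. The study's own sample list writes the Meox2-cre genotype as Pax5(+/-) where the labels have Pax5(+/+), and the ages of the other mice are not given in the sources used here. The gates differed, with CD2-, IgM- and IgD- among the criteria for pro-B cells and Ly6D+ among those for Pax5-deficient progenitors, both being B220+ Kit+, so that genotype and gate cannot be told apart. Values are given as TPM, which measure transcript abundance per gene length and have the same sum in each library. The number of reads is unknown, and so is the error that counting adds to low values.

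Pax5 itself measured 342, 386 and 391 TPM in the wild-type libraries and 43.0 and 39.1 TPM in the Pax5(-/-) libraries (log2 fold change -3.17, SE 0.11, limma adjusted p = 3.14e-06). Of 9 B lineage markers, 8 had a limma adjusted p below 0.05 and all 8 were lower in Pax5(-/-) cells. Ly6d, a gene of the gate for the Pax5-deficient progenitors, measured 190.0 to 270.5 against 2258 to 3033 TPM. Markers of other cells were present as well. The summed TPM of 8 myeloid markers ranged from 44.0 to 118 in wild-type and from 61.8 to 72.6 in Pax5(-/-) libraries. The sum of 10 T and NK cell markers ranged from 24.4 to 69.1 and from 67.4 to 73.7 TPM, and that of 5 erythroid markers from 70.6 to 175 and from 7.28 to 57.8 TPM. Within these lists, Nkg7 (log2 fold change 2.31, limma adjusted p = 0.00488) and Cd4 (2.38, 0.000865) were higher and Klrb1c (-1.69, 0.0347), Elane (-3.10, 0.0163), Itgam (-1.22, 0.0215) and Klf1 (-1.90, 0.0109) were lower in Pax5(-/-) cells, while Lat, which made up most of the T and NK cell sum, did not pass (0.31, 0.531). Of these only Cd4 kept a limma adjusted p below 0.05 when each Pax5(-/-) library was left out in turn, those of the others reaching 0.0935 for Nkg7, 0.205 for Klrb1c, 0.113 for Elane, 0.177 for Itgam and 0.145 for Klf1. Whether these transcripts came from other cells or from the sorted cells was not tested, nor was their part in the results below. Pax5(-/-) replicate 2 was the deepest library, at 1.54 times the relative depth of wild-type replicate 1, and Pax5(-/-) replicate 1 the shallowest at 0.855. In bulk RNA, fewer cells of a type and less RNA per cell cannot be told apart.

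Pax5(-/-) pro-B cells differed from wild-type pro-B cells in opposite directions within the pDC programme. Tlr7, Runx2, Siglech and Pacsin1 rose from near or below 2 TPM on average to between 5.43 and 13.0 TPM. Spib, the most abundant member, fell from 533.8 to 150.5 TPM. Ptprs rose by less than 3-fold, while Bcl11a and Tlr9 did not pass the test and Klk1 was too low to be tested. A gene was called when its limma adjusted p was below 0.05, its change exceeded 3-fold and its mean exceeded 5 TPM in at least 1 genotype. By this rule 4 of the 8 members tested were called higher and 1 was called lower. Without Pax5(-/-) replicate 2, 2 were called higher and 1 lower, and the stricter limma treat test, which asks whether a change exceeds 3-fold, called 0 higher and 0 lower. Among all 11920 entries tested outside the immunoglobulin and T cell receptor loci, 2.74% were called higher and 3.19% were called lower. By the adjusted p alone, 5 members were higher and 1 was lower, where the background was 15.6% higher, 21.3% lower and 36.8% in either direction. The median log2 fold change of the 8 members was 1.17, and that of all entries was -0.11. The 4 members called higher had wild-type means below 5 TPM and could pass the level threshold only through the Pax5(-/-) cells, and Siglech passed the filter on low values (a mean above 1 TPM) only through them as well. The counts are therefore a description.

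**Figure D1:**
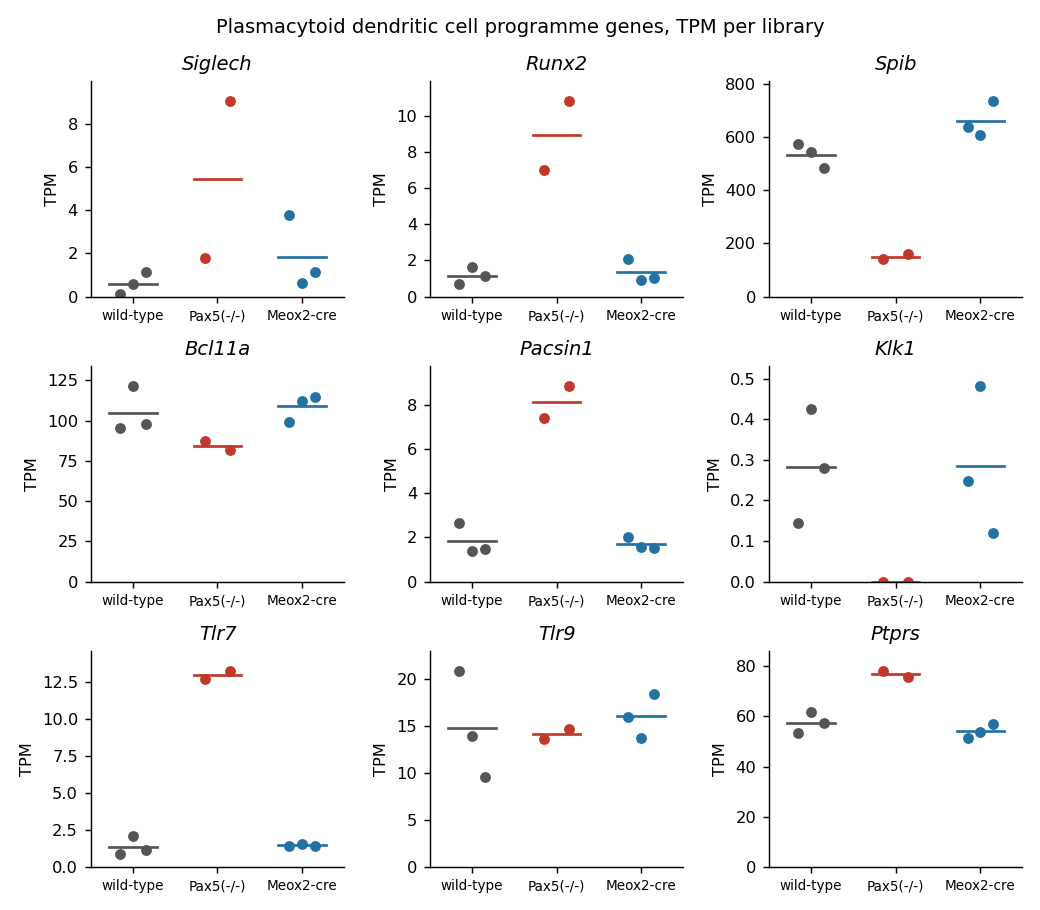
TPM of the 9 pDC programme genes in each library (points, replicates 1 to 3 from left to right) with the group mean (line), on a linear axis from 0 that is scaled for each gene. The Pax5(-/-) points lie above all wild-type points for Siglech, Runx2, Pacsin1, Tlr7 and Ptprs, as for 26.1% of all entries tested. They lie below all wild-type points for Spib, Bcl11a and Klk1, as for 37.3%, and among them for Tlr9. Meox2-cre libraries were processed on another genome build.

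The levels spanned more than 3 orders of magnitude within the list. In all 3 groups Spib was the highest, followed by Bcl11a, Ptprs and Tlr9, and the library ranges of these 4 genes did not overlap each other. Spib stood at percentiles 98.0 to 98.3 of all entries above 0 TPM in wild-type libraries and at 90.6 to 92.4 in Pax5(-/-) libraries. Below Tlr9, the wild-type ranges of Pacsin1, Tlr7, Runx2, Siglech and Klk1 each overlapped that of the next gene. In Pax5(-/-) cells Tlr7 stood apart, below Tlr9 and above Runx2, whereas Runx2 overlapped Pacsin1 and Pacsin1 overlapped Siglech. Spib accounted for 76.7, 72.8 and 74.0% of the members' summed TPM in wild-type libraries and for 40.3 and 42.9% in Pax5(-/-) libraries.

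Among the transcription factors, Runx2, a Runt-domain protein needed for the egress of mature pDCs from bone marrow, measured 0.696, 1.61 and 1.16 TPM in wild-type and 6.99 and 10.8 TPM in Pax5(-/-) libraries. Both Pax5(-/-) libraries lay above every wild-type library, as was the case for 26.1% of all entries tested. The log2 fold change was 2.52 (SE 0.32, 95% confidence interval 1.76 to 3.27, limma adjusted p = 0.00105), and the adjusted p stayed below 0.05 in 15 of 15 settings of the analysis. The Meox2-cre libraries held 2.09, 0.891 and 1.02 TPM, near the wild-type range. Runx2 lies at chr17:44632936-44951746 (mm9, minus strand) and overlaps the gene model of Supt3h, and its exons overlap those of Gm10497 on the opposite strand. The counting did not use strand, so reads from such overlaps cannot be assigned to Runx2 with certainty.

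Runx2 remained the least abundant of the 3 Runx genes in every library. Runx1, the family member needed for blood stem cells, measured 60.7, 70.6 and 64.3 TPM in wild-type and 91.7 and 80.1 TPM in Pax5(-/-) cells (log2 fold change 0.40, limma adjusted p = 0.034, which rose to 0.244 without Pax5(-/-) replicate 1, to 0.101 without Pax5(-/-) replicate 2, to 0.0655 without wild-type replicate 1 and to 0.0572 without wild-type replicate 3). Runx3, known for its part in cytotoxic T cells, measured 58.2, 58.3 and 42.2 against 102 and 89.3 TPM (0.86, limma adjusted p = 0.00608, but 0.0893 without Pax5(-/-) replicate 1 and 0.0623 without Pax5(-/-) replicate 2). All 3 genes were thus higher in Pax5(-/-) cells, and Runx2 had the largest fold. Its share of the summed Runx TPM was 0.582, 1.24 and 1.08% in wild-type and 3.49 and 6.01% in Pax5(-/-) libraries. Cbfb, which encodes the common partner of the Runx proteins, fell by 0.68 on the log2 scale (limma adjusted p = 0.00468, but 0.0646 and 0.0627 without Pax5(-/-) replicate 1 or 2).

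Spib encodes an Ets-family factor shared by pDCs and B cells and lies at chr7:51781365-51787441 (mm9, minus strand), with Pold1 675 bases away. It measured 574, 544 and 483 TPM in wild-type and 140.1 and 161 TPM in Pax5(-/-) libraries. Both Pax5(-/-) libraries were below every wild-type library, as for 37.3% of all entries tested. The log2 fold change was -1.82 (SE 0.11, 95% confidence interval -2.09 to -1.56, limma adjusted p = 4.01e-05). The Meox2-cre libraries were at 640.2, 608 and 738 TPM. Spib was still more abundant in Pax5(-/-) cells than any other member.

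Spi1 encodes PU.1, the Ets factor closest to Spib, and moved the other way. It measured 207, 176 and 141 TPM in wild-type and 349 and 347 TPM in Pax5(-/-) cells (log2 fold change 1.01, limma adjusted p = 0.00261, but 0.0539 without Pax5(-/-) replicate 2). The ratio of Spib to Spi1 within a library, which does not depend on the scaling of the library, was 2.77, 3.09 and 3.44 in wild-type and 0.402 and 0.463 in Pax5(-/-) cells. Spib thus exceeded Spi1 in each wild-type and each Meox2-cre library, and Spi1 exceeded Spib in both Pax5(-/-) libraries.

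Bcl11a, a zinc finger factor needed for both B cell and pDC development, measured 95.3, 122 and 97.9 TPM in wild-type and 87.2 and 81.6 TPM in Pax5(-/-) cells. The Pax5(-/-) libraries were lower without overlap, which was the case in either direction for 63.4% of all entries tested. Bcl11a did not pass the test (log2 fold change -0.30, 95% confidence interval -0.61 to 0.00, limma adjusted p = 0.107). Its gene lies at chr11:23978056-24074123 (mm9, plus strand), with an exon overlap with 4930538E20Rik on the opposite strand. Its relative Bcl11b, a T cell factor, was at most 0.0561 TPM in any wild-type or Pax5(-/-) library.

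**Figure D2:**
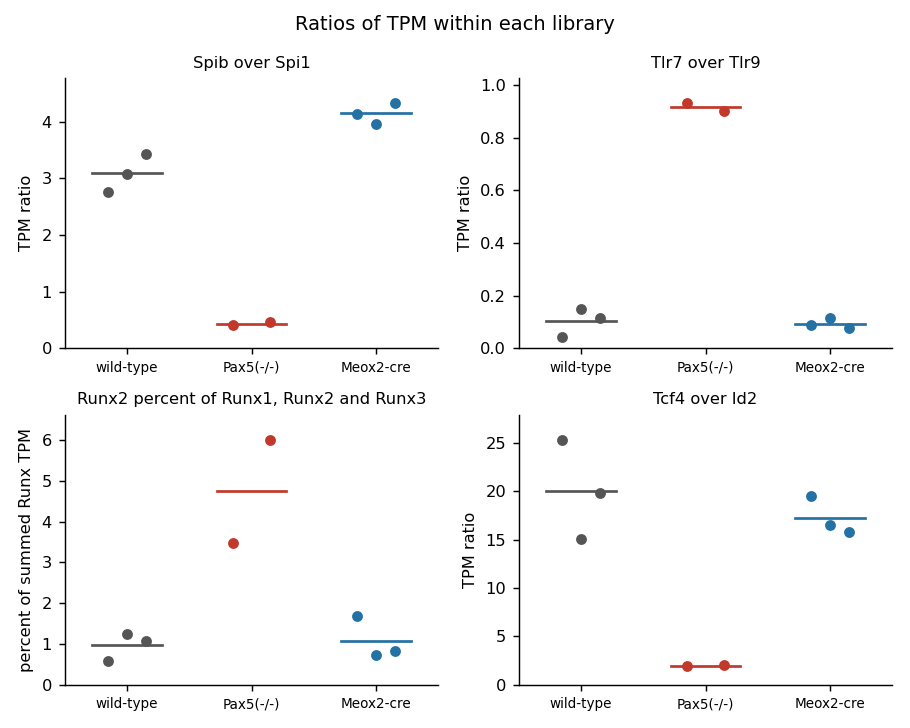
Ratios of TPM between pairs of genes within each library (points, with the group mean as a line): Spib over Spi1, Tlr7 over Tlr9, Runx2 as a percentage of the summed Runx1, Runx2 and Runx3 TPM, and Tcf4 over Id2, each on a linear axis from 0. Spib over Spi1 lies between 2.77 and 3.44 in wild-type cells and at 0.402 and 0.463 in Pax5(-/-) cells, and wild-type and Pax5(-/-) libraries do not overlap in any panel.

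Tlr7 and Tlr9 encode the endosomal receptors for single-stranded RNA and for unmethylated CpG DNA, respectively. Tlr7 measured 0.845, 2.09 and 1.11 TPM in wild-type and 12.7 and 13.2 TPM in Pax5(-/-) libraries, and all Meox2-cre libraries lay between 1.38 and 1.57 TPM. The genotypes were far apart, and the Pax5(-/-) libraries differed little from each other. The log2 fold change was 2.92 (SE 0.31, 95% confidence interval 2.20 to 3.64, limma adjusted p = 0.000425), and the mean TPM was 9.61 times that of wild-type cells. This was the largest log2 fold change of the members in the fit of all libraries, although Siglech exceeded it without Pax5(-/-) replicate 1 (3.23 against 2.95). Tlr7 lies at chrX:163742861-163768490 (mm9, minus strand). Tlr8, the related receptor 40600 bases away, was at most 0.118 TPM in every wild-type and Pax5(-/-) library. Other Toll-like receptor genes differed in both directions. Tlr1 was higher (log2 fold change 2.43, limma adjusted p = 0.000665), with means of 0.122 and 2.86 TPM, below the 5 TPM threshold. Tlr12 was called lower (-1.62, 0.00369), and Tlr4 (-1.53, 0.00347) and Tlr5 (-1.41, 0.0157) were lower. Tlr2 (0.31, 0.222) and Tlr6 (0.17, 0.617) did not pass.

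Tlr9 (chr9:106124929-106129207, mm9, plus strand) measured 20.8, 13.9 and 9.59 TPM in wild-type and 13.6 and 14.6 TPM in Pax5(-/-) cells. The Pax5(-/-) libraries lay within the spread of the wild-type libraries, which was the widest of the 4 most abundant members relative to its mean. No change was detected (log2 fold change 0.00, limma adjusted p = 0.994), and the 95% confidence interval of -0.68 to 0.69 leaves room for a change of that size. Tlr7 was at 0.0406, 0.150 and 0.116 of the level of Tlr9 in wild-type libraries and at 0.932 and 0.903 in Pax5(-/-) libraries. Transcripts of Tlr7 thus came close to the level of those of Tlr9 in Pax5(-/-) cells alone, the Meox2-cre ratios being 0.0867, 0.114 and 0.0776. The receptor proteins were not measured here.

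The genes that act with these receptors did not move in 1 direction. Of 17 pathway genes tested, 5 were higher and 4 were lower at a limma adjusted p below 0.05, and 8 did not pass. Among all entries 15.6% were higher, 21.3% lower and 36.8% either, so that the number of lower genes was near the background. Their median log2 fold change was -0.04. Irf7, the interferon regulatory factor that drives type I interferon genes in pDCs, and Lgmn, a protease that cleaves endosomal receptors, were called higher. Irf7 measured 8.11, 23.5 and 18.2 against 61.4 and 88.4 TPM (log2 fold change 2.24, limma adjusted p = 0.00459, but 0.094 without Pax5(-/-) replicate 2). Lgmn measured 61.8, 57.9 and 61.1 against 235 and 201 TPM (1.84, limma adjusted p = 2.83e-05). Irak1, a kinase of the receptor complex, rose by 1.12 on the log2 scale.

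Unc93b1, the chaperone that carries both receptors to the endosome, went down from 757, 713 and 633 to 391 and 442 TPM (log2 fold change -0.75, limma adjusted p = 0.00237, but 0.0502 without Pax5(-/-) replicate 1). Traf6, the ubiquitin ligase of the signal, was lower as well (-0.74), with an adjusted p of 0.063 without Pax5(-/-) replicate 2. Myd88, the adaptor of both receptors, was lower in both Pax5(-/-) libraries than in any wild-type library, as were 37.3% of all entries tested. It measured 58.8, 56.6 and 61.2 against 44.6 and 46.3 TPM (-0.37, limma adjusted p = 0.0289). Its libraries did not overlap, but the adjusted p was 0.107 after median ratio scaling, 0.174 without Pax5(-/-) replicate 1 and 0.143 without Pax5(-/-) replicate 2. The number of pathway genes that passed was 4 when either Pax5(-/-) library was left out.

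The product of the pathway was near 0. None of 13 type I interferon genes found in the mm9 tables passed the filter, Ifnb1 was listed at 0 in every library, and the summed TPM of the interferon genes was at most 0.212 in wild-type and 0.442 in Pax5(-/-) libraries.

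**Figure D3:**
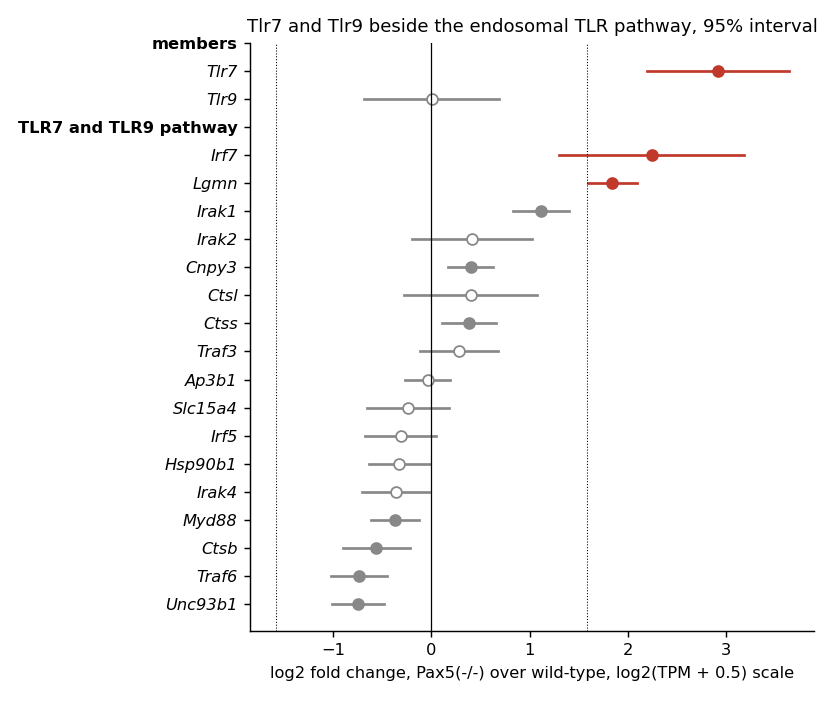
Log2 fold change of Pax5(-/-) over wild-type pro-B cells on the log2(TPM + 0.5) scale for Tlr7, Tlr9 and 17 genes of their pathway (points) with 95% confidence intervals (bars). Filled points have a limma adjusted p below 0.05, red marks genes called higher, grey genes not called, and dotted lines mark 3-fold. Tlr7 is at 2.92, Tlr9 at 0.00, and the pathway genes range on both sides of 0.

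Siglech encodes a sialic acid-binding lectin used as the surface marker of mouse pDCs and lies at chr7:63023548-63034295 (mm9, plus strand). It measured 0.106, 0.570 and 1.12 TPM in wild-type and 1.79 and 9.06 TPM in Pax5(-/-) cells. The genotypes did not overlap, which was the case in either direction for 63.4% of all entries tested. The Pax5(-/-) libraries lay far apart from each other. The log2 fold change was 2.20 (SE 0.64, 95% confidence interval 0.71 to 3.70, limma adjusted p = 0.0311). Without Pax5(-/-) replicate 2 it was 1.17 (adjusted p = 0.248), and without wild-type replicate 1 or 2 the adjusted p was 0.0657 or 0.0768. The call was also lost without the filter on low values (0.074) and without the mean-variance trend of limma (0.0575). The Meox2-cre libraries were spread as widely, at 3.79, 0.605 and 1.12 TPM, with 1 of them above a Pax5(-/-) library.

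Other lectins of the same family differed in both directions. Siglecg, the inhibitory Siglec of B cells, went down from 95.4, 98.9 and 142 TPM to 2.38 and 2.57 TPM (log2 fold change -5.22, limma adjusted p = 4.6e-06). Cd33, a Siglec of myeloid cells, measured 1.33, 2.42 and 1.76 against 10.8 and 8.77 TPM (2.16, limma adjusted p = 0.000871). Siglece measured 0.616, 1.07 and 0.927 against 3.68 and 3.90 TPM (1.66, limma adjusted p = 0.00296), below the 5 TPM threshold. Siglech, Cd33 and Siglece, all low in wild-type cells, were thus higher in Pax5(-/-) cells, and the abundant Siglecg was lower.

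Pacsin1, a membrane-bending adaptor of endocytosis that is used as a pDC marker, lies at chr17:27792454-27848051 (mm9, plus strand). It measured 2.66, 1.38 and 1.47 TPM in wild-type and 7.41 and 8.86 TPM in Pax5(-/-) cells, with Meox2-cre libraries at 2.02, 1.57 and 1.55 TPM. The Pax5(-/-) libraries lay above all others, and 26.1% of all entries tested had both above every wild-type library. The log2 fold change was 1.92 (SE 0.29, 95% confidence interval 1.24 to 2.60, limma adjusted p = 0.00225). Leaving out Pax5(-/-) replicate 2 gave 1.80 and an adjusted p of 0.0525. Its broadly expressed relative Pacsin2 fell from 82.7, 87.5 and 87.7 to 61.6 and 48.7 TPM (log2 fold change -0.64, limma adjusted p = 0.00672, but 0.0805 without Pax5(-/-) replicate 2).

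Ptprs encodes a receptor tyrosine phosphatase that dampens pDC activation (chr17:56551851-56615906, mm9, minus strand). It measured 53.5, 61.7 and 57.3 TPM in wild-type and 78.2 and 75.6 TPM in Pax5(-/-) cells, where both libraries lay above all wild-type libraries and above the Meox2-cre libraries (51.3, 53.7 and 57.1 TPM). Among all entries tested, 26.1% had both Pax5(-/-) libraries above every wild-type library. The log2 fold change was 0.42 (SE 0.11, 95% confidence interval 0.16 to 0.67, limma adjusted p = 0.0211), below the 3-fold threshold. The adjusted p was 0.149 without Pax5(-/-) replicate 1 and 0.13 without replicate 2.

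Klk1 encodes a tissue kallikrein, a serine protease known as a pDC transcript in the mouse (chr7:51480807-51484987, mm9, plus strand). It measured 0.145, 0.425 and 0.279 TPM in wild-type and 0.249, 0.482 and 0.121 TPM in Meox2-cre cells, and it was listed at 0 in both Pax5(-/-) libraries. It stayed below the filter and was not tested. Of its 13 close Klk1b relatives, between which reads may be split, 12 were listed at 0 in every wild-type and Pax5(-/-) library.

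The start regions of the members were read from RefSeq promoters (GRCm38.p6, 250 bases upstream of the start), which hold 9 promoters for 8 members and none for Tlr7. They were searched on both strands for the core of the Runx motif, TGTGGT or its reverse complement, since the Runx genes are among the genes described. It occurred in 3 of 9 member promoters, those of Siglech, Runx2 and Pacsin1, against 14.0% of 32851 promoters. These are shown because their genes were called higher, with Spib, the member called lower, for comparison. Lower case is used throughout, and capitals mark the match, whose 5′ end lies 115 bases before the start in Siglech, 80 in Runx2 and 178 in Pacsin1.
Siglech (chr7:55767934-55768183, plus strand): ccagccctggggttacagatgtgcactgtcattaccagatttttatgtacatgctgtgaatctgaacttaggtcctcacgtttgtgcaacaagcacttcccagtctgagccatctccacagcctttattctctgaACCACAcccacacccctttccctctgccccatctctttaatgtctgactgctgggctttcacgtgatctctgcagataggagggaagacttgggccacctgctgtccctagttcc
Runx2 (chr17:44814628-44814877, minus strand): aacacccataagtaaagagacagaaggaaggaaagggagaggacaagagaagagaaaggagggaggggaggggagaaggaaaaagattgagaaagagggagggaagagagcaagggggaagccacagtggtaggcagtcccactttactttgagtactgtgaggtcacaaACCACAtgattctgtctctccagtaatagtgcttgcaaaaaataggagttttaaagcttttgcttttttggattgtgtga
Pacsin1 (chr17:27684989-27685238, plus strand): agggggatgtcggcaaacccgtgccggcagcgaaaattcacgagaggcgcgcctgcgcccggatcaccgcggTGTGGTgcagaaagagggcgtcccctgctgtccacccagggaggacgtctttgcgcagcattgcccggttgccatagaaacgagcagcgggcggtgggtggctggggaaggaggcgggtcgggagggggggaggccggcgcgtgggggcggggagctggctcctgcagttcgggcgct
Spib (chr7:44532072-44532321, minus strand): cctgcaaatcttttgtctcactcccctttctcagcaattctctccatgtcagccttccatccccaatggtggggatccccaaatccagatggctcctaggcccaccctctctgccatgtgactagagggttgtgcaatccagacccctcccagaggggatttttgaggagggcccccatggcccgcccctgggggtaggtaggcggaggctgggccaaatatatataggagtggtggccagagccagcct

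The match in Runx2 overlaps an E box, CANNTG, the motif that E proteins such as Tcf4 bind. E boxes were in 7 of 9 member promoters, with none in that of Pacsin1, and in 66.2% of all promoters. The E box CAGGTG was, like the Runx core, in 3 of 9, those of Klk1, Siglech and Tlr9, against 17.2% of all. The E box CAGCTG was in 0 of 9, against 13.0%. The core GAGGAA of the Spi1 and Spib group of Ets factors was in 2 of 9 member promoters, those of Ptprs and Tlr9, against 23.3% of all. The interferon response element, a pair of GAAA blocks 2 bases apart, was in 0 of 9, against 2.98%. Beyond the members, TGTGGT was in 19.5% of 303 promoters of genes called higher, in 10.8% of 371 of genes called lower and in 11.0% of 10569 of the other genes tested, a count made after the matches in the members had been seen. Median GC content in these 3 sets was 55.6, 59.6 and 60.0%. A match is a description of the letters and not a binding site.

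A wider list of 18 pDC genes also held changes in both directions. Of the 14 tested, 4 were called higher (background 2.74%) and 2 lower (3.19%), and by the limma adjusted p alone 5 were higher (15.6%) and 3 lower (21.3%). Clec12a and Cox6a2, with wild-type means of 2.12 and 4.48 TPM, could pass the 5 TPM threshold only through the Pax5(-/-) cells. The median log2 fold change was 0.27. Ccr9, Lag3, Cd209d and Havcr1 stayed below the filter, with at most 1.15 TPM in any library. Clec12a, an inhibitory lectin, measured 1.54, 2.18 and 2.64 TPM in wild-type and 25.4 and 28.6 TPM in Pax5(-/-) cells (log2 fold change 3.41, limma adjusted p = 6.27e-05). Plac8, a small cysteine-rich protein of lymphoid progenitors and pDCs, measured 605, 511 and 453 against 2328 and 2739 TPM (2.28, limma adjusted p = 4.17e-05). Cox6a2, a subunit of cytochrome c oxidase, measured 5.57, 3.77 and 4.09 against 20.0 and 41.3 TPM (2.57, limma adjusted p = 0.000869). Together with Irf7, these are the 4 genes called higher. Bst2 did not pass the test, at 83.0, 123 and 103 against 120 and 163 TPM (log2 fold change 0.46, limma adjusted p = 0.1), and its genotypes overlapped. Tyrobp (1.53, 0.0942), Cd300c (-0.42, 0.646), Ly6c2 (-0.17, 0.858) and Lair1 (0.09, 0.871) did not pass either.

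Of the transcription factors in this wider list, Tcf4, Irf8 and Zeb2 were lower, Irf7 was higher, and Cbfa2t3, a transcriptional corepressor, did not pass the test (log2 fold change -0.15, limma adjusted p = 0.616). Tcf4, the E protein at the head of the programme, measured 78.3, 89.8 and 86.0 TPM in wild-type and 52.3 and 52.4 TPM in Pax5(-/-) cells (log2 fold change -0.69, limma adjusted p = 0.00262). Irf8, which pDCs, conventional dendritic cells and B cells express, went down from 231, 241 and 239.9 to 40.4 and 78.4 TPM (-2.06, limma adjusted p = 0.000688). Zeb2, a repressor of Id2 in pDCs, went down from 26.2, 32.0 and 35.4 to 10.1 and 8.37 TPM (-1.70, limma adjusted p = 0.000397), and without Pax5(-/-) replicate 2 its change was -1.57, just under 3-fold. Tcf4, Irf8 and Zeb2 were each lower in every Pax5(-/-) library than in any wild-type library, as were 37.3% of all entries tested.

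Id2, the inhibitor of E proteins that favours conventional over plasmacytoid dendritic cells, was called higher, with 3.09, 5.96 and 4.33 against 26.3 and 26.1 TPM (log2 fold change 2.47, limma adjusted p = 0.000402). The ratio of Tcf4 to Id2 was 25.4, 15.1 and 19.9 in wild-type and 1.99 and 2.01 in Pax5(-/-) libraries. Tcf4 was thus above Id2 in every library, but by far less in Pax5(-/-) cells. Irf4, a factor of conventional dendritic and B cells, was called lower (-2.30, limma adjusted p = 0.000113). The defining markers Batf3, Zbtb46, Xcr1 and Clec9a of conventional dendritic cells were each at or below 0.35 TPM in every wild-type and Pax5(-/-) library. Of the 6 conventional dendritic cell markers that were tested, Id2, Nfil3 (log2 fold change 1.57, limma adjusted p = 0.0032, but 0.0592 without Pax5(-/-) replicate 2) and Cst3 (0.55, limma adjusted p = 0.0169, but 0.0833 and 0.184 without Pax5(-/-) replicate 1 or 2) were higher, Irf4 was lower, and Itgax (1.02, limma adjusted p = 0.128) and Sirpa (0.29, limma adjusted p = 0.199) did not pass, although Itgax passed without Pax5(-/-) replicate 1 (0.0359) and both passed after quantile normalization (0.0491 and 0.0458). The sum of the 12 markers was 731 to 865 TPM in wild-type and 985 to 1123 TPM in Pax5(-/-) libraries, of which Cst3, a widely expressed protease inhibitor, made up 569 to 743 and 916 to 1041 TPM. Their part in the values of the members was not tested.

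**Figure D4:**
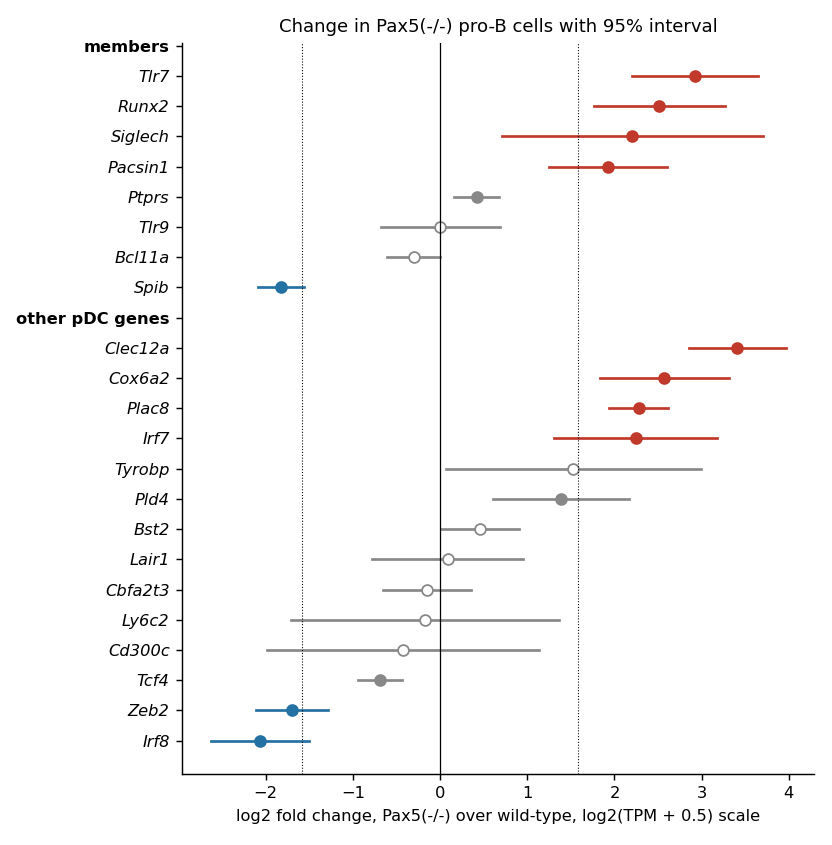
Log2 fold change of Pax5(-/-) over wild-type pro-B cells on the log2(TPM + 0.5) scale for the 8 members and the 14 other pDC genes tested (points) with 95% confidence intervals (bars). Filled points have a limma adjusted p below 0.05, red marks genes called higher, blue genes called lower and grey genes not called, and dotted lines mark 3-fold. Tlr7, Runx2, Siglech and Pacsin1 lie between 1.92 and 2.92 and Spib at -1.82, with Clec12a at 3.41 and Irf8 at -2.06 as the ends of the other list.

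Libraries of the same group differed in some of these genes. Siglech was 2.06 higher on the log2(TPM + 0.5) scale in Pax5(-/-) replicate 2 than in replicate 1, and only 0.562% of the entries tested had as large a gap. In Meox2-cre replicate 1 it was 1.68 above the mean of the other libraries, a gap reached by 0.403% of entries. Runx2 was highest in the same libraries, by 0.60 and 0.83, and so were Cd300c, an activating receptor of myeloid cells and pDCs (1.43 and 1.36), and Ccr9, a chemokine receptor of pDCs (1.22 and 0.84). Tlr7 did not share this pattern (0.06 and -0.09). Pax5(-/-) replicate 2 was the higher library for 6 of the 9 members and 16 of the 18 other pDC genes, against 38.8% of all entries tested. It was also higher for 10 of 12 conventional dendritic cell markers. Meox2-cre replicate 1 was the highest of 3 libraries for 3 of the 9 members and 10 of the 18 other genes, against 37.5% of entries. These counts include genes below the filter on low values, which the shares of all entries leave out, so the 2 are not matched. Examples in Pax5(-/-) replicates 1 and 2 were Cd209d (0 and 0.285 TPM), Havcr1 (0 and 0.391 TPM) and Xcr1 (0.0333 and 0.0368 TPM). Whether Pax5(-/-) replicate 2 and Meox2-cre replicate 1 held more dendritic cells was not tested.

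**Figure D5:**
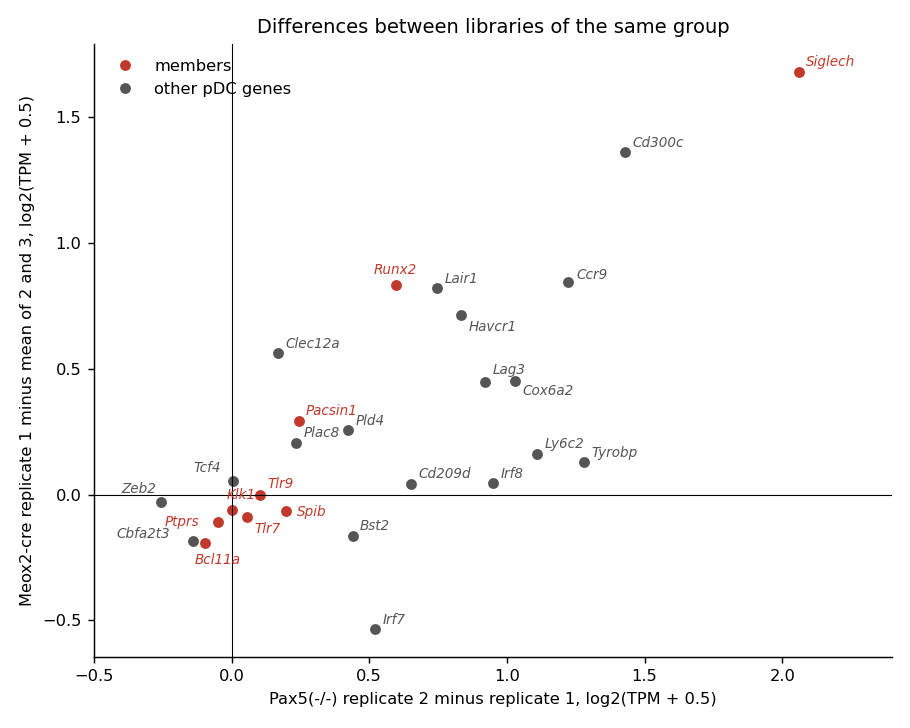
Difference between Pax5(-/-) replicates 2 and 1 (horizontal axis) and between Meox2-cre replicate 1 and the mean of replicates 2 and 3 (vertical axis), both in log2(TPM + 0.5), for the 9 members (red) and the 18 other pDC genes (grey). Siglech lies farthest from 0 on both axes, at 2.06 and 1.68, whereas Tlr7, Tlr9, Spib, Bcl11a, Ptprs and Klk1 lie close to 0.

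The Meox2-cre cells express Pax5 and their libraries were aligned and counted differently, so that no test against the other groups was made. Their mean levels were 662 ± 67.9 TPM for Spib, 109 ± 8.23 TPM for Bcl11a, 54.0 ± 2.94 TPM for Ptprs and 16.0 ± 2.33 TPM for Tlr9 (SD, n = 3). The means of the other members were 1.84 ± 1.71 TPM for Siglech, 1.71 ± 0.268 TPM for Pacsin1, 1.46 ± 0.0986 TPM for Tlr7, 1.33 ± 0.659 TPM for Runx2 and 0.284 ± 0.183 TPM for Klk1. Without replicate 1 the mean of Siglech was 0.862 TPM, and without replicate 2 that of Klk1 was 0.185 TPM. The order of the 4 most abundant members was that of the wild-type libraries, and the ratio of Spib to Spi1 was 4.15, 3.97 and 4.33.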

How the data were processed

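Poly(A) RNA of sorted pro-B cells was sequenced by the authors. Per the labels and the methods, reads of the wild-type and Pax5(-/-) libraries were aligned to mm9 with TopHat 1.4.1a and counted with featureCounts 1.5.0 on a modified refGene annotation, without strand. Those of the Meox2-cre libraries were aligned to mm10 with STAR 2.4.2a and counted with featureCounts 1.5.0. The deposited values are TPM, calculated by the authors from reads per gene and gene length. They hold no counts, so that depth is unknown, and relative depth was read from the commonest ratio between low values.

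Wild-type (n = 3) and Pax5(-/-) (n = 2) libraries were tested in R 4.3.3 by limma 3.58.1 (lmFit, eBayes with trend) on log2(TPM + 0.5), for entries with a mean above 1 TPM in a genotype, with Benjamini-Hochberg adjustment over all 12066 entries tested. Fold changes of low genes are understated on this scale. The fit was tested on simulated data. An exact permutation test of 3 against 2 libraries cannot go below p = 0.1. Nothing states that libraries came from separate animals, so p-values measure the spread between these samples. Confidence intervals are those of limma.

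Genes named are the members, their relatives, genes of the pDC programme, of the endosomal receptor pathway and of other cell types, and the gate genes. The members and lists were chosen with earlier results of these data known. Alternatives were other pseudocounts, filters, scalings, variance models and thresholds, and leaving out each library. Coordinates are from GENCODE (mm9) and promoters from RefSeq (GRCm38.p6). Samples of ChIP-seq and of Pax5(Jak2/+) cells were not used here, and some marker genes are not reported here. Python 3.11.15 with pandas 2.3.3, numpy 2.4.6 and matplotlib 3.10.9 served for tables and plots.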

Additional observations from a re-analysis of the deposited data

How the results depend on the processing

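Among 56 named genes that were tested, 706 of 778 values refitted under other settings kept their direction and their side of the adjusted p of 0.05, 63 no longer passed, 4 newly passed and 5 changed sign. The ratio of mean TPM, which has no p, kept the direction of 7 of 8 members. The 6 changes of sign were in genes that did not pass the test. When each library was left out, Cbfa2t3 ranged from -0.32 to 0.077 (without wild-type replicate 2) and Lat from -0.10 (without wild-type replicate 1) to 0.61. The others were in Tlr9: its log2 fold change lay between -0.26 and 0.28 when each library was left out, below 0 without wild-type replicate 2 (-0.0052), wild-type replicate 3 or Pax5(-/-) replicate 2 (-0.05), and was -0.065 as the ratio of mean TPM. Leaving out each library in turn gave 2 to 4 members called higher (2 without Pax5(-/-) replicate 2), 1 called lower each time, and 3 to 6 with an adjusted p below 0.05 (3 without Pax5(-/-) replicate 2). For the wider pDC genes it gave 3 to 5 called higher and 1 to 2 called lower, and for the receptor pathway 4 to 11 genes that passed. Where a Pax5(-/-) library was left out, the remaining one was assumed to vary like the wild-type libraries. The limma treat test against 3-fold called 0 members higher, 0 members lower, 2 wider pDC genes higher and 0 lower, where a change over 3-fold had to be shown and not only estimated. Without the filter on low values, or without the trend, 3 members were called higher. Median ratio scaling raised log2 fold changes by 0.114. No paired analysis was possible because GEO's labels number none of the libraries, and the replicate numbers used here follow accession order and only name them. The number of reads behind a value is unknown, so that the counting error of low genes such as Siglech and Klk1 could not be given.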
